A study of Mus musculus with 11 samples.

Results

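Ttc27, Fez2, Prkd3 and Qpct are 4 genes of mouse chromosome 17 that lie, in that order, after Xdh in the gene order of the RefSeq assembly GRCm38.p6. They were chosen by measured values, since their transcripts, like that of Xdh, read lower in livers lacking glutathione reductase. Their genotype differences are therefore given as a description and without a test. The platform annotation gives 6 of 22626 probe sets (a set of short probes that together report 1 transcript) to exactly 1 of these symbols, namely 1 each for Ttc27, Fez2 and Qpct and 3 for Prkd3. Xdh, the gene they are compared with, has 1 probe set.

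Liver RNA came from 11 male C57BL/6J mice aged 15 to 20 weeks, 5 wild type (WT) and 6 Gsr-null, and was hybridised to single-colour Affymetrix arrays. Livers were taken in the afternoon. Gsr encodes the enzyme that returns oxidised glutathione to its reduced form. The Gsr-null allele, its flanking sequence, the number of backcrosses and the litters are not given in the sources used here. Values are the authors' GCRMA values, read as log2, and samples carry the biological replicate number of the labels within each genotype.

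Xdh encodes xanthine dehydrogenase, which carries out the last steps of purine breakdown to uric acid. Its neighbours have unrelated roles. Ttc27 encodes a protein of tetratricopeptide repeats, a fold that binds other proteins. Fez2 encodes an adaptor related to FEZ1, which links cargo to kinesin motors. Prkd3 encodes protein kinase D3, a serine/threonine kinase that is activated by diacylglycerol and protein kinase C. Qpct encodes a secreted glutaminyl cyclase, which turns an N-terminal glutamine of peptides and chemokines into pyroglutamate.

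From Xdh to Qpct, both included, the assembly lists 64 genes, 27 of them protein coding. Between Xdh and Ttc27 lie 20 annotated genes, between Ttc27 and Fez2 21, between Fez2 and Prkd3 17, and between Prkd3 and Qpct 1, which is not protein coding. Prkd3 and Qpct are thus next to each other among protein-coding genes, whereas the others are separated by 4 to 10.

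The promoters are shown because the genes were lower together while their upstream sequences differ in composition. RefSeq promoter sequences of GRCm38.p6 were matched for Ttc27, Fez2 and Prkd3, and not for Qpct and Xdh. The lines give the stretch from 250 to 16 bases before the annotated start, 5′ to 3′ on the strand of the gene, with capitals marking matches to the motifs named after them.

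Ttc27 (chr17:74717500-74717734, plus strand): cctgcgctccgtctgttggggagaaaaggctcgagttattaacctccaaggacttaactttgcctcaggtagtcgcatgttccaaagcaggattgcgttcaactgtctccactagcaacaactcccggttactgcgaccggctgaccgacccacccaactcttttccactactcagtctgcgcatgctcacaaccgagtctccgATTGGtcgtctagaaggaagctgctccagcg

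Fez2 (chr17:78418168-78418402, minus strand): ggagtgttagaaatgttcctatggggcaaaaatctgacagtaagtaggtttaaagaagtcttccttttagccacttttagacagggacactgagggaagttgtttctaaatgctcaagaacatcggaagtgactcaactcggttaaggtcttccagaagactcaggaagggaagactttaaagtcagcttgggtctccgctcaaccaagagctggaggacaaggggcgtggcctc

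Prkd3 (chr17:79020832-79021066, minus strand): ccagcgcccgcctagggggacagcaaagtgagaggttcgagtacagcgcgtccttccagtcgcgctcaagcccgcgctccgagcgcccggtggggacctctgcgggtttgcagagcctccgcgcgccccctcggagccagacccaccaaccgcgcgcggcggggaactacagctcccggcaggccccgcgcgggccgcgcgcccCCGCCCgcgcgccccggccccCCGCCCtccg

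The share of G and C was 54% for Ttc27, 46.4% for Fez2 and 77.9% for Prkd3, against a median of 51.9% over 32841 RefSeq promoter stretches of the same 235 bases. CpG dinucleotides numbered 14, 4 and 36, against a median of 5. On either strand the Prkd3 stretch held 2 GC boxes (GGGCGG), a motif present in 30.6% of all stretches. The Ttc27 stretch held 1 CCAAT box (CCAAT, in 32.6% of all). No stretch of the 3 held TATAAA (11.9% of all), the antioxidant response element core TGACNNNGC (9.44%) or the E-box CACGTG (5.49%). The 3 matches do not overlap each other. A second annotated Prkd3 start, which lies inside the gene, had 40.4% G and C in the same window and 0 matches. These matches are descriptions of letters, not of bound sites.

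Of the 6 probe sets, 5 passed the filter on low values, a log2 value above 4 in at least 5 samples, which 9560 probe sets passed. The Qpct probe set passed through its 5 WT values alone, since none of the 6 Gsr-null values exceeded 4, so that a gene just past the filter in this way had to differ. The Prkd3 probe set 1420567_at exceeded 4 in 4 samples and was not tested. The 7 hepatocyte markers looked up, among them Alb, Apoa1 and Ttr, were all at 9.67 or above in every sample, and limma called 0 of them. Tat, with an unadjusted p under 0.05, differed by 0.58 (SE 0.251, limma adjusted p = 0.559), and the other hepatocyte markers by -0.11 to 0.05. Of 34 markers of other liver and blood cell types 14 were tested and limma called 0 (3 at an unadjusted p under 0.05). Those 3 were Col1a2, a collagen gene of stellate cells and fibroblasts, at a difference of 0.89 (SE 0.295, limma adjusted p = 0.363), Alas2 of erythroid cells at 0.59 (SE 0.242, limma adjusted p = 0.509) and Fcgr2b of sinusoidal endothelium at -0.38 (SE 0.171, limma adjusted p = 0.579). Col3a1, also of stellate cells and fibroblasts, differed by 0.87 (SE 0.493, limma adjusted p = 0.736), so that some of these differences are as large as those of Ttc27 and Prkd3 below. The log2 of the summed tested markers overlapped between genotypes, at 10.16 to 10.45 in WT and 9.62 to 10.80 in Gsr-null samples for the 3 of stellate cells and fibroblasts, 8.58 to 9.13 and 8.77 to 10.29 for Alas2, the 1 tested erythroid marker, and 9.68 to 10.48 and 9.62 to 10.49 for the 5 of sinusoidal endothelium. In WT samples the sum for stellate cells and fibroblasts is mostly Dcn, at 9.93 to 10.27. Col3a1 lay there at 6.82 to 7.37 and Col1a2 at 4.52 to 5.05, so the sum says little of these collagens. The part of these cell types in the results was not tested. Gsr itself was lower in all 6 Gsr-null samples than in any WT sample on both of its probe sets, with a difference of -1.83 (SE 0.123) on 1421817_at. The control probe sets of Gapdh and Actb, which read the 3' and the 5' end of each transcript, show how intact the labelled RNA was, and by their mean 3' minus 5' difference the arrays fell into sets. This difference was 0.544 to 0.703 in the lower set (WT samples 2 and 4, Gsr-null samples 1, 2 and 3) and 1.2 to 1.75 in the higher set (WT samples 1, 3 and 5, Gsr-null samples 4, 5 and 6). Gsr-null samples 2 and 3 also had a higher floor, with 5th percentiles of 1.79 and 1.76 against 1.53 to 1.62 on the other arrays.

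Xdh was read at log2 values of 9.22, 9.48, 9.11, 9.30 and 9.61 in WT samples 1 to 5. In Gsr-null samples 1 to 6 it was read at 6.99, 7.35, 7.40, 6.08, 6.22 and 6.30. Every Gsr-null sample lay at least 1.71 below the lowest WT sample, and the Gsr-null samples themselves formed an upper trio (1, 2 and 3) and a lower trio (4, 5 and 6). The trios are the same samples as the lower and higher 3' minus 5' sets. The difference of means was -2.62 (SE 0.255), or 6.16-fold. In bulk tissue, fewer cells of a type and less RNA per cell cannot be told apart, here and for every gene that follows.

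Fez2, the kinesin adaptor relative, was read at 6.75, 6.60, 6.68, 6.18 and 7.28 in WT samples 1 to 5. In Gsr-null samples 1 to 6 it was 4.96, 5.31, 5.11, 6.08, 5.93 and 4.46. The groups did not overlap, but Gsr-null sample 4 lay only 0.10 below WT sample 4. The WT mean was 6.70 ± 0.393 (SD, n = 5) and the Gsr-null mean 5.31 ± 0.609 (SD, n = 6), a difference of -1.39 (SE 0.285), or 2.62-fold. Within the Gsr-null group Fez2 was highest in samples 4 and 5, where Xdh was lowest.

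Qpct, the glutaminyl cyclase, was read at 4.28, 4.31, 4.19, 4.90 and 4.36 in WT samples 1 to 5. In Gsr-null samples 1 to 6 it was 3.40, 3.53, 2.47, 3.40, 3.20 and 3.17. The groups did not overlap and lay 0.67 apart, with WT sample 4 high and Gsr-null sample 3 low in their groups. The WT mean was 4.41 ± 0.283 (SD, n = 5) and the Gsr-null mean 3.19 ± 0.379 (SD, n = 6), a difference of -1.22 (SE 0.195). The WT values lie above the filter level of 4 and the Gsr-null values below it. No fold is given, because the values used here carry no detection call and may not stand above background in Gsr-null livers. The suffix _a_at of the probe set marks one that reads several transcripts of the gene.

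Ttc27, the tetratricopeptide repeat gene, was read at 4.75, 4.87, 5.33, 4.38 and 5.05 in WT samples 1 to 5. In Gsr-null samples 1 to 6 it was 3.83, 4.29, 3.74, 4.42, 4.39 and 3.93. The groups overlapped: Gsr-null samples 4 and 5 lay just above WT sample 4, and the other 4 Gsr-null samples lay below every WT sample. The WT mean was 4.88 ± 0.352 (SD, n = 5) and the Gsr-null mean 4.10 ± 0.303 (SD, n = 6), a difference of -0.77 (SE 0.189), or 1.71-fold. Only 3 of 6 Gsr-null values exceeded the filter level of 4, so this fold rests on low values without a detection call.

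Prkd3, the protein kinase D gene, was read by 3 probe sets that lie at different levels, which are not compared with each other. On 1428229_at it was 8.98, 9.72, 9.52, 9.70 and 9.08 in WT samples 1 to 5, and 9.20, 8.81, 8.52, 8.26, 8.12 and 8.55 in Gsr-null samples 1 to 6. Only Gsr-null sample 1 reached into the WT range, so 5 of 6 lay below every WT sample. The WT mean was 9.40 ± 0.346 (SD, n = 5) and the Gsr-null mean 8.58 ± 0.387 (SD, n = 6), a difference of -0.82 (SE 0.21), or 1.77-fold.

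On 1428230_at Prkd3 was 7.72, 8.96, 8.74, 8.98 and 8.41 in WT samples 1 to 5, and 8.45, 8.14, 7.96, 7.63, 7.42 and 7.94 in Gsr-null samples 1 to 6. WT sample 1 was low here, and only 2 Gsr-null samples lay below it. The difference of means was -0.64 (SE 0.245), or 1.56-fold.

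On the untested probe set 1420567_at Prkd3 was 3.96, 5.72, 3.94, 6.11 and 4.16 in WT samples 1 to 5, and 5.05, 3.69, 3.45, 3.27, 3.08 and 3.36 in Gsr-null samples 1 to 6. WT samples 2 and 4 and Gsr-null sample 1, which all belong to the lower 3' minus 5' set, stood above the others. The difference of means was -1.13 (SE 0.466, from a fit over all probe sets without the filter). WT samples 2 and 4 were the highest, and Gsr-null sample 1 the highest of its group, on all 3 Prkd3 probe sets.

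**Figure D1:**
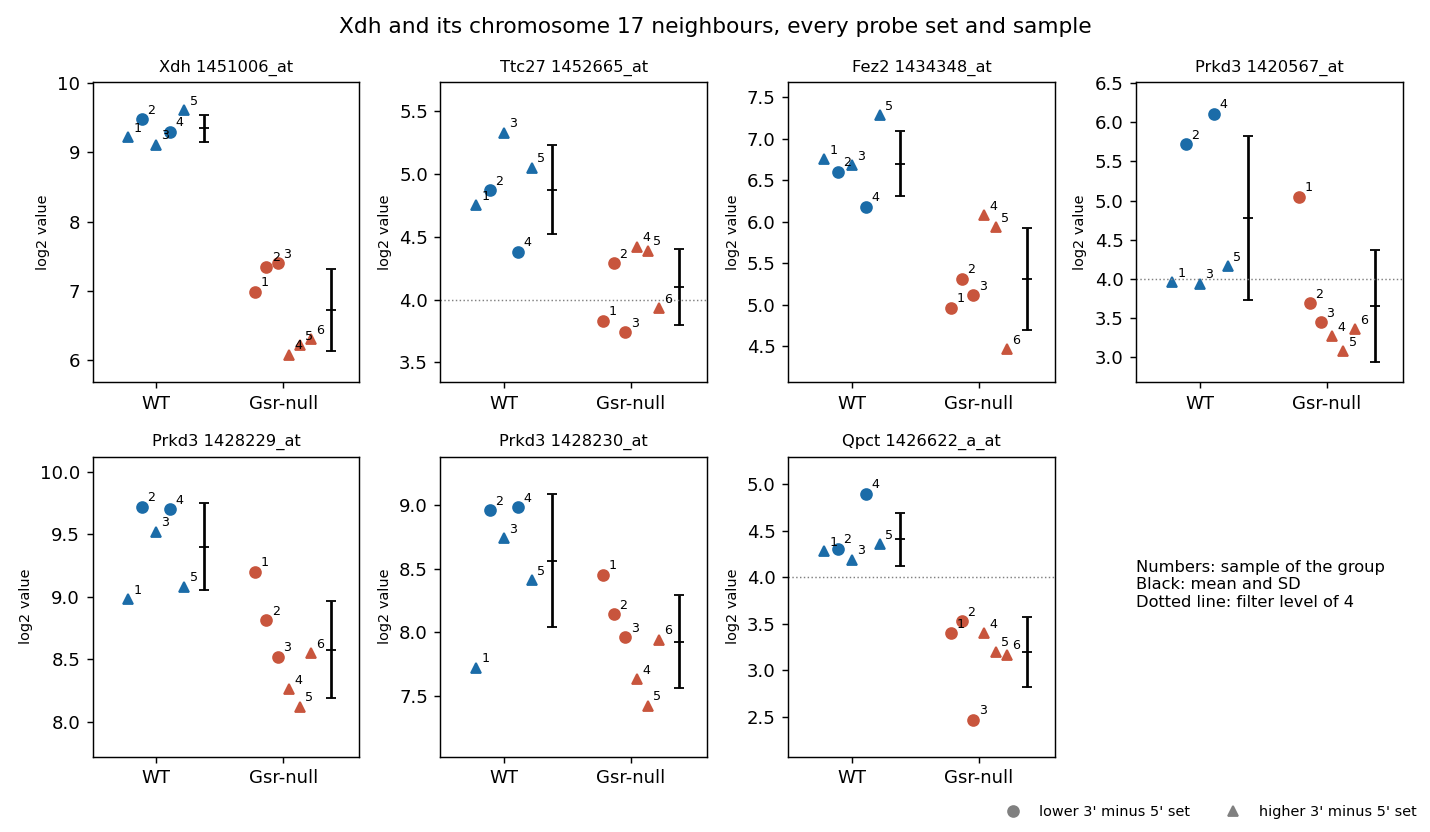
Log2 value of each probe set of Xdh, Ttc27, Fez2, Prkd3 and Qpct in 5 WT and 6 Gsr-null livers, with the mean and SD in black, circles for the lower and triangles for the higher 3' minus 5' set, and a dotted line at the filter level of 4. The groups are apart for Xdh, Fez2 and Qpct and overlap for Ttc27 and the 3 Prkd3 probe sets; each panel has its own vertical range.

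Over all 9560 tested probe sets, limma called 0.387% at an adjusted p under 0.05 (Benjamini-Hochberg over all of them) and 0.22% in the lower direction. This contrast chose the 4 neighbours and Xdh, so no calls are given here for them. The number of calls under the alternatives, given at the end, is a description only. Groups without overlap and every Gsr-null sample lower were found for 2 of the 5 tested member probe sets, Fez2 and Qpct, against 0.785% of all tested probe sets. Nothing is read from that count, for the same reason and because Qpct passed the filter through its WT values alone.

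The genes around and between them were taken by position and where a gene had several tested probe sets the one with the highest mean stood for it. Of 20 genes from Xdh to Qpct with a probe set, 14 were tested. Of these, 5 are Xdh and the 4 neighbours, which bound or fill the stretch because they were lower, so only the other 9 were counted. Limma called 0 of the 9, against 0.216% of 6022 tested genes called lower. At an unadjusted p under 0.05, 1 of the 9 was lower and 0 were higher, against 5.45% of all tested genes lower. That gene is Cebpzos, which averaged 7.25 ± 0.226 (SD, n = 5) in WT livers and 6.89 ± 0.269 (SD, n = 6) in those of Gsr-null mice (difference -0.36, SE 0.155, limma adjusted p = 0.557).

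The lower genes did not form an unbroken run from Xdh on, although Prkd3 and Qpct were consecutive among tested genes. All 6 tested genes between Xdh and Ttc27 had differences near 0: Memo1 0.20, Dpy30 0.03, Spast 0.02, Slc30a6 0.07, Yipf4 0.11 and Birc6 -0.12. Fam98a, the 1 tested gene between Ttc27 and Fez2, differed by 0.00 (SE 0.133). Between Fez2 and Prkd3 lay Cebpzos at -0.36 and Ndufaf7 at -0.19 (SE 0.12). Every tested gene from Fez2 to Qpct thus had a negative difference. Over these 9 genes the median difference was 0.02, against -0.03 over all tested genes.

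Outside the stretch limma called 0 of the 25 tested genes before Xdh and 0 of the 23 after Qpct, which are all that remain on the chromosome. At an unadjusted p under 0.05, 1 gene before Xdh was lower, and after Qpct 2 were lower and 1 higher. The gene before Xdh was Lpin2, which differed by -0.90 (SE 0.308, limma adjusted p = 0.389). That is a larger fall than those of Ttc27 at -0.77 and of Prkd3 on 1428229_at at -0.82. Median differences were -0.06 before and -0.13 after. The nearest tested genes on the outside, Ehd3 before Xdh and Hnrnpll after Qpct, differed by -0.29 (SE 0.276) and -0.13 (SE 0.14). Over all of chromosome 17 outside the stretch, these flanks included, limma called 0 of 273 tested genes. Of them 16 were lower at an unadjusted p under 0.05 and 5 higher, and differences ran from -1.19 to 1.26. Whether the lower genes of the stretch share a cause with Xdh was not tested.

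**Figure D2:**
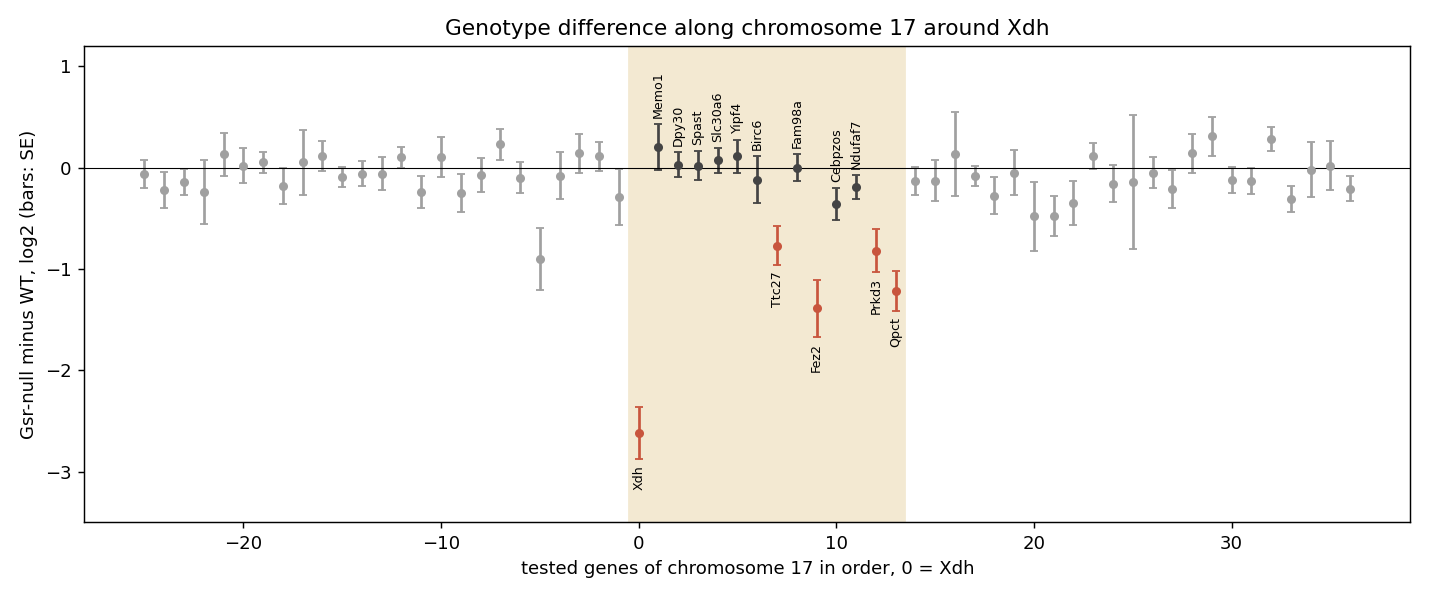
Difference Gsr-null minus WT on the log2 scale, with its SE from limma, for the tested genes of chromosome 17 from 25 before Xdh to 23 after Qpct, in gene order and not to distance. Xdh and its 4 neighbours in red lie from -2.62 to -0.77, while the dark points between them lie from -0.36 to 0.20.

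A further gene of the stretch was seen below the filter and is named after its values were seen. Crim1, which encodes a membrane protein that binds bone morphogenetic proteins, lies between Ttc27 and Fez2. Its probe set 1426951_at averaged 3.09 ± 0.323 (SD, n = 5) in WT livers and 2.15 ± 0.0743 (SD, n = 6) in those of Gsr-null mice, with WT samples from 2.79 to 3.64 and Gsr-null samples from 2.07 to 2.23. On 1452253_at the ranges were 3.59 to 4.96 and 3.05 to 3.80, which overlap, with a difference of -0.69. The groups were apart on the first probe set, but at values close to the floor of the arrays. The 12 untested probe sets of non-members in the stretch, those of Crim1 included, differed by -0.94 to 0.15.

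The sample patterns were then set against that of Xdh after removing the genotype means, which leaves out the contrast that chose the genes. Pearson's r between deviations over 11 samples was computed for the 6 probe sets, with exact two-sided permutation p over 86400 orders of Xdh within genotype. None reached an adjusted p under 0.05 over the 6 relations. Prkd3 had positive values, r = 0.443 on 1428229_at (permutation p = 0.232, adjusted p = 0.464; Spearman's rho = 0.364, permutation p = 0.31) and r = 0.428 on 1428230_at (permutation p = 0.147, adjusted p = 0.464; rho = 0.473, permutation p = 0.154). On 1420567_at r was 0.309 (permutation p = 0.336, adjusted p = 0.504; rho = 0.4, permutation p = 0.143).

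The other neighbours had negative values. Ttc27 gave r = -0.378 (permutation p = 0.226, adjusted p = 0.464; rho = -0.455, permutation p = 0.167). Fez2 gave r = -0.233 (permutation p = 0.549, adjusted p = 0.659; rho = -0.291, permutation p = 0.459), and Qpct r = -0.233 (permutation p = 0.696, adjusted p = 0.696; rho = -0.1, permutation p = 0.812). The rank correlations had adjusted p between 0.333 and 0.812. With 11 samples such values do not show that the genes vary independently of Xdh.

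The samples farthest from the median Xdh deviation were Gsr-null samples 2 and 3. Without both, r was 0.592, 0.521 and 0.603 for Prkd3 on 1428229_at, 1428230_at and 1420567_at, -0.452 for Ttc27, -0.251 for Fez2 and 0.163 for Qpct, with exact permutation p from 0.0858 to 0.775. The Qpct value thus changed sign. With the 3' minus 5' set removed as well, all signs other than that of Qpct turned: r was -0.281, -0.222 and -0.703 for the Prkd3 probe sets, 0.0948 for Ttc27, 0.154 for Fez2 and -0.479 for Qpct, with adjusted p from 0.517 to 0.688 over 432 orders within genotype and set. No correlation was computed within the Gsr-null samples alone, because their Xdh values fall into trios, and the WT group has too few samples for one.

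**Figure D3:**
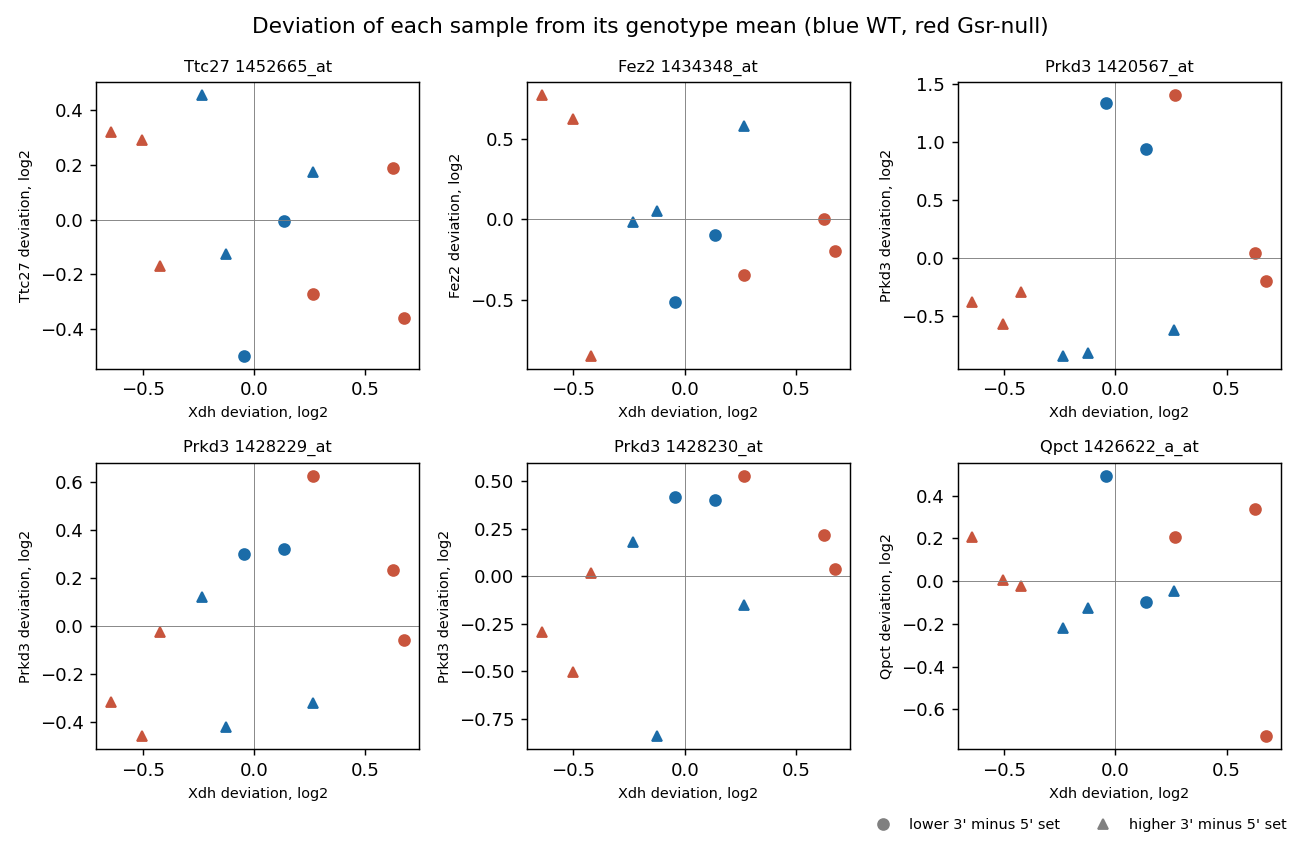
Deviation of each sample from its genotype mean on the log2 scale, Xdh on the horizontal axis and a member probe set on the vertical axis, in blue for WT and red for Gsr-null, with circles for the lower and triangles for the higher 3' minus 5' set. Gsr-null circles lie to the right and Gsr-null triangles to the left, and no panel shows a relation that passed the test.

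Among themselves the neighbours fell into different patterns of deviations, given as descriptions over the same 11 samples. The 3 Prkd3 probe sets, which share a gene, correlated at 0.769 to 0.931. Ttc27 and Fez2 correlated at 0.705. Fez2 and Prkd3 ran against each other, at -0.633 on 1428229_at, -0.543 on 1428230_at and -0.488 on 1420567_at. Qpct and its direct neighbour Prkd3 correlated at 0.306 on 1428229_at, and Qpct and Fez2 at -0.0175. All values share the arrays and their 3' minus 5' differences, whose part in them was not tested.

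The sets were therefore compared directly in a fit that kept genotype, with limma over all tested probe sets, which called 6.37% of them. Of the 5 tested member probe sets 0 were called, and Xdh was not called. The lower set was 0.52 higher for Prkd3 on 1428229_at (SE 0.151, limma adjusted p = 0.0655) and 0.59 higher on 1428230_at (SE 0.183, limma adjusted p = 0.0854). Xdh was 0.61 higher in the lower set (SE 0.19, limma adjusted p = 0.0839). Its means in the lower and higher set were 9.39 and 9.31 in WT samples, and 7.25 and 6.20 in Gsr-null samples. Fez2 and Ttc27 had the opposite sign, at -0.43 (SE 0.267, limma adjusted p = 0.393) and -0.35 (SE 0.164, limma adjusted p = 0.247), and Qpct differed by 0.08 (SE 0.2, limma adjusted p = 0.868).

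The genotype differences within the sets, with 2 WT and 3 Gsr-null samples in the lower set and 3 of each in the higher set, were close for most probe sets. They were -0.86 and -0.88 in the lower and higher set for Prkd3 on 1428229_at, -0.79 and -0.63 on 1428230_at, -1.26 and -1.41 for Fez2, and -0.67 and -0.79 for Ttc27. Qpct differed by -1.47 and -1.02, and Prkd3 on 1420567_at by -1.86 and -0.79, where the lower set started from a WT mean of 5.92 and the higher from 4.02.

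Xdh differed by -2.15 in the lower set and -3.11 in the higher set. The interaction of genotype and set, tested by limma over all probe sets, was 0.96 for Xdh (SE 0.262, limma adjusted p = 0.263) and passed for 0 of 9560 probe sets (0%; 1078 at an unadjusted p under 0.05). For the 5 tested member probe sets it lay between -0.45 and 0.15 with limma adjusted p from 0.709 to 0.993.

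**Figure D4:**
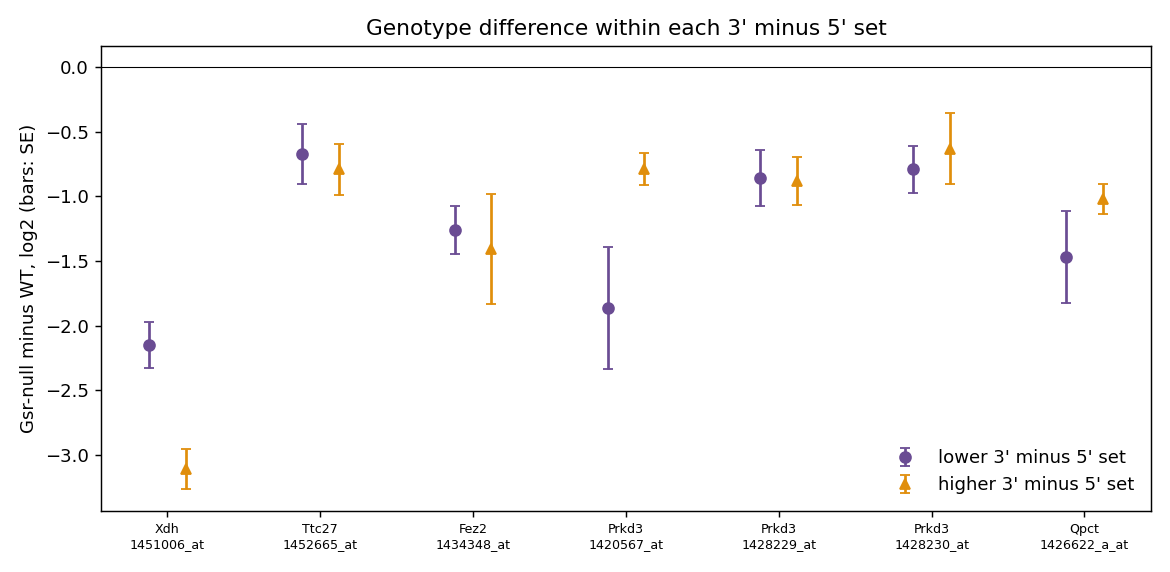
Difference Gsr-null minus WT on the log2 scale within the lower (circles) and higher (triangles) 3' minus 5' set, with SE from limma fits over all probe sets of each set. All points lie below 0; Xdh is at -2.15 and -3.11, and Prkd3 on 1428229_at at -0.86 and -0.88.

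The genes whose patterns most resembled each neighbour were sought among 5943 other tested genes with 1 probe set each. Over all 11 samples, where the genotype difference enters, Fez2 was most like Guk1 (r = 0.951), Tsen34 (0.936) and Gab1 (0.931). Qpct was most like Nepro (0.911), Rbm12 (0.91) and Rbbp7 (0.906), Prkd3 most like H2aw (0.907), Fbxo21 (0.895) and Usp3 (0.872), and Ttc27 most like Myg1 (0.932), Ifit1 (0.922) and Scnm1 (0.92). None of these 12 genes is on chromosome 17. That chromosome holds only 287 of the 6022 tested genes, so nothing is read from this. By the same measure Xdh held place 11 for Prkd3 (r = 0.823), 22 for Qpct (0.817), 192 for Fez2 (0.745) and 276 for Ttc27 (0.687). Xdh and the neighbours were chosen as lower in Gsr-null livers, which raises these places by construction, so nothing is read from them.

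On deviations from the genotype means the nearest genes were others, apart from Nepro. Fez2 was most like Oxld1 (0.963), Psmb6 (0.953) and Mea1 (0.951), of which Mea1 is on chromosome 17. Ttc27 was most like Clk3 (0.917), Ctdp1 (0.913) and Ccdc43 (0.907), and Prkd3 most like Fgb (0.893), Hnrnph1 (0.889) and U2surp (0.881). Qpct was most like Mtdh (0.913), Nepro (0.894) and Zfand1 (0.888). Here Xdh held place 606 for Prkd3, 4013 for Qpct, 4846 for Fez2 and 5389 for Ttc27. With so many genes and so few samples, high values of r at the top of such a list are to be had without any relation.

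Relatives and partners of the neighbours showed no called gene, while limma called 0.387% of all 9560 tested probe sets. With so few relatives and partners tested, nothing is read from 0 calls here or in the next paragraph. Of 7 paralogs on the array 4 were tested, with a median difference of -0.28 against -0.03 over all tested genes, and limma called 0. Qpctl, the Golgi glutaminyl cyclase, differed by -0.29 (SE 0.187, limma adjusted p = 0.797) and Prkd2 by -0.31 (SE 0.169, limma adjusted p = 0.705). Aox3 and Aox1, aldehyde oxidases related to Xdh, differed by -0.27 (SE 0.212) and 0.13 (SE 0.285), with limma adjusted p of 0.882 and 0.986. Fez1 and Prkd1 were at the floor, at means of 1.83 and 1.79 in WT.

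Of the protein kinase C genes that act upstream of protein kinase D, 1 of 6 was tested and 0 called: Prkce differed by -0.21 (SE 0.185, limma adjusted p = 0.921). Among the targets of protein kinase D 1 of 7 was tested and 0 called: Cttn, cortactin, differed by -0.16 (SE 0.149, limma adjusted p = 0.933). Its other tested probe sets differed by 0.09 and -0.07. Of 6 proteins with an N-terminal pyroglutamate 2 were tested, with a median difference of 0.04, and 0 called, Fn1, fibronectin, at 0.07 (SE 0.122, limma adjusted p = 0.979) and Apoa2 at 0.02 (SE 0.119, limma adjusted p = 0.999). The chemokines Ccl2, Ccl7, Ccl8 and Cx3cl1, known substrates of glutaminyl cyclase, did not pass the filter. Of the kinesin heavy chains that bind FEZ proteins, Kif5b was tested and not called, at 0.14 (SE 0.375, limma adjusted p = 0.99). Other tested Kif5b probe sets differed by 0.07, 0.12 and -0.24, so their signs were not the same.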

How the data were processed

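The deposited table holds 1 log2 value per probe set and sample for 5 WT and 6 Gsr-null livers. The authors used GCRMA, which corrects background, normalizes between arrays and summarises probes, per the submitters' processing notes; that the values are log2 was read from their range. Filters, batches and scan dates are not given in the sources used here. The number of arrays limits the precision.

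After 64 Affymetrix controls were left out, 22626 probe sets remained, of which 20380 had 1 gene symbol, 691 several and 1555 none. Only those with 1 symbol were given a gene name. The filter on low values, more than 4 on the log2 scale in 5 or more samples, left 9560, which were fitted with limma 3.58.1 (R 4.3.3, lmFit and eBayes) and adjusted over all of them by Benjamini-Hochberg. The fit of Gsr-null against WT was also run on simulated data over 9560 probe sets. It recovered 74% of changes of 1 and 99% of changes of 2 on the log2 scale. Of its calls 5.46% were false. The simulated noise was normal and independent between probe sets, without the 3' minus 5' sets. More probe sets were changed than the 37 called in these data, which eases the adjustment. Recovery on the real arrays may therefore be lower. Correlations, promoter counts and figures were made in Python 3.11.15 (numpy 2.4.6, matplotlib 3.10.9).

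No array build is named, so gene order alone was taken from RefSeq GRCm38.p6, and promoter coordinates are those of RefSeq. The members, the gene lists and the choice of genes to name were made with earlier results of these data known. The named genes are Gsr, Xdh, the members, genes from Xdh to Qpct that were called or had an unadjusted p under 0.05, called genes of the flanks, up to 4 tested genes of each list, and the 3 genes most like each member. Crim1, the other genes of the stretch, Lpin2, Ehd3, Hnrnpll and genes at the floor were named outside this rule, by position or after their values were seen. The planned correlation within Gsr-null samples was not computed because Xdh is split into trios there, and Xdh has no other probe set to try. As alternatives the filter, the scaling, the variance model, array weights, blocks, the threshold and the flank width were varied and samples were omitted. The comparison of the 3' minus 5' sets and the values within them were chosen after the data were seen.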

Additional observations from a re-analysis of the deposited data

Results flagged for a closer look

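By Dixon's ratio, the gap to the next value over the range, a single sample lay well away in 3 of the 14 groups examined. By chance 0.7 would be met. The groups share arrays and the Prkd3 probe sets share a gene, so 3 is not read as an excess. Prkd3 on 1420567_at was 5.05 in Gsr-null sample 1, while the rest of its genotype lay between 3.08 and 3.69. In WT sample 4 Qpct reached 4.90, where the rest of the WT group lay between 4.19 and 4.36. In Gsr-null sample 3 Qpct was down at 2.47, the rest of that group lying between 3.17 and 3.53. WT sample 4 and Gsr-null samples 1 and 3 belong to the lower 3' minus 5' set. The part of that set in these values was not tested.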

How the results depend on the processing

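The comparisons within the 3' minus 5' sets were chosen after seeing the data; the remaining alternatives were planned. All 129 values of the member differences under alternatives were negative and within 1 SD of the reported value, the SD being pooled within genotypes. Most alternatives use the same samples or leave out 1, and the members were chosen as lower, so little is read from this. For the changes that follow the cause was not tested, apart from the stricter threshold and the smaller number of probe sets or samples, which enter by construction. Calls among the genes from Xdh to Qpct fell only on Xdh and its neighbours. This contrast chose them and Qpct passed the filter through its WT values alone. Their number is therefore a description from which nothing is read, set beside 0.216% of 6022 tested genes called lower. In the main fit 2 were called, and 1 with a filter level of 6, where Ttc27 and Qpct are not tested. At an adjusted p under 0.01 it was 1, and with the replicate block 0. Leaving out 1 sample gave 1 to 3, with 1 without WT sample 1, 2 or 5. The other genes of the stretch had 0 calls in all 22 alternatives. The flanks had 0 called genes in all 21 alternatives tried for them. Over all tested probe sets 16 were called higher and 21 lower; these became 7 and 7 with the filter at 6, 7 and 5 at an adjusted p under 0.01, 6 and 4 without Gsr-null samples 2 and 3, 2 and 1 with the replicate block, and 9 to 24 and 5 to 19 with 1 sample left out. The omissions that moved the higher count by over 1.5 times were of WT sample 5, and for the lower count of each of the WT samples and of Gsr-null samples 2 and 3. Xdh, at -2.62, was -2.15 and -3.11 within the lower and higher 3' minus 5' sets.

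None of the deviation correlations with Xdh passed the test under any alternative. With the 3' minus 5' set as a block they turned to 0.09 for Ttc27, 0.15 for Fez2, and -0.70, -0.28 and -0.22 for Prkd3 on 1420567_at, 1428229_at and 1428230_at. Qpct turned to 0.01 with the replicate block and 0.16 without Gsr-null samples 2 and 3. Leaving out 1 sample gave -0.57 to 0.05 for Fez2, turning without Gsr-null sample 4, and -0.50 to 0.34 for Qpct, turning without Gsr-null sample 3. Replicate numbers are shared by the genotypes, but the sample titles name no pairing. For Gsr-null samples the titles also carry another number, which differs from the replicate number. Between samples of the same replicate number the deviations had correlations of -0.173, 0.0361, -0.0561, -0.243 and -0.171. For 0 of 5 numbers was the partner the best match. Numbers 1, 3 and 4 join samples of different 3' minus 5' sets, so these values cannot exclude a pairing. Low values, as for Qpct and Ttc27 in Gsr-null livers and for Crim1, limit what the arrays can show.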
